A study of Mus musculus with 5 samples.

Results

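MicroRNA reads that began downstream of the annotated 5' end were followed here in mouse testis cells. A tag is one distinct read sequence in a library, with its read count. Members were tags that matched a single mature microRNA without a mismatch, held no undetermined base and started 1 or more bases inside the annotated mature sequence. There were 3479 such tags with 425976 reads, of 98027 distinct tags with 14452683 reads in all. Shares were computed for the 216 microRNA names with at least 1000 exact reads over the 5 libraries, which held 2711 of the shifted tags and 420673 of their reads. In every share below the shifted reads of a name are divided by all its exact reads, shifted or not. Some alternative settings in the closing sections are exceptions.

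The libraries came from testes of C57BL/6 mice, whose cells had been sorted on magnetic beads by Thy1.2, a surface protein of spermatogonial stem cells, the self-renewing cells from which sperm arise. Both Thy1+ libraries were made from the retained fraction and both Thy1- libraries from the depleted fraction, which is enriched for somatic cells per its titles, although its cell type label repeats the stem cell name. The fifth library came from a germ cell culture grown from enriched cells for about 10 passages, with no second culture beside it. The labels give no age and do not say whether replicates were separate animals, so the p-values below measure the spread between these libraries, which may be technical. The libraries held 937002 and 947687 reads (Thy1+), 2548234 and 4909753 (Thy1-) and 5110007 (culture).

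The markers available for the sorted cells are microRNAs alone. The miR-183 and miR-290 clusters, which are high in germ and stem cells, made up 5.85% and 7.21% of the exact reads in the Thy1+ libraries, 0.515% and 0.259% in the Thy1- libraries and 2.41% in the culture. Products of miR-223, miR-155, miR-150 and miR-142, which mark white blood cells, made up 1.61% and 2.93% in the Thy1+ libraries, against 0.209%, 0.140% and 0.0981% in the others. The 2 detected products of miR-202, a gonadal somatic microRNA, took 1.95% and 0.384% of the Thy1- libraries and no more than 0.235% of any other. Other sets went different ways, given here as Thy1+, Thy1- and culture. Mesenchymal miR-143, miR-145, miR-199 and miR-214 took 2.02% and 2.46%, 3.48% and 1.57%, and 4.24%. Endothelial miR-126 took 0.208% and 0.294%, 0.101% and 0.179%, and 0.0593%. Red blood cell miR-144, miR-451 and miR-486 took 0.0258% and 0.0186%, 0.140% and 0.151%, and 0.00122%. Muscle miR-1, miR-133 and miR-206 took 0.155% and 0.174%, 0.102% and 0.0307%, and 0.119%. In such bulk libraries fewer cells of a type and less RNA per cell cannot be told apart.

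A microRNA is cut from its hairpin in a pair of steps. Drosha makes the cut in the nucleus that sets the 5' end of the 5p strand, and Dicer makes the cut in the cytoplasm that sets the 5' end of the 3p strand. Bases 2 to 8 from the 5' end form the seed, through which the microRNA finds its targets, so that a start moved by a single base gives another seed. Tags beginning farther inside also arise when a microRNA is cleaved or degraded, and such a short tag need not sit in an Argonaute protein.

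What the files can show is one-sided. No tag starts before the annotated start and none runs past the annotated 3' end, so starts upstream of the annotated base cannot be seen here. The shortest tag has 15 bases, which sets the deepest shift visible in a mature sequence of 22 bases at 7. The shifts below are therefore all downstream and are written as +1, +2 and so on.

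Shares by name formed a long tail. Over the 216 names the mean share of shifted reads had a median of 1.05% (quartiles 0.559% and 2.91%). It was above 5% in 41 names, above 10% in 25 and above 20% in 12, and 26 names stayed above 5% in every library. Every name but miR-297c had at least 1 shifted read. The 5 names with the most shifted reads held 39.98% of them, the top 10 held 61.4% and the top 20 held 81.5%.

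Shifted tags were described in 2 kinds, by the size of the shift. A shift of a single base exceeded 5% in 21 of the 216 names and a shift of 3 or more in 9. No name was in both groups. Groups this small would share few names even if unrelated, so the lack of overlap does not separate 2 kinds. The +1 tags averaged 20.9 bases, with 2.08% of their reads under 18 bases, and 63.9% of them ended at the annotated 3' end. Tags shifted by 3 or more averaged 17.2 bases, with 52.0% under 18 bases, and 77.8% ended at the annotated 3' end. No tag is under 15 bases or passes that end, so the shift itself largely bounds these lengths and ends. They are no separate support for 2 kinds. Tags at the annotated start averaged 21.8 bases.

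The leading tags of the +1 kind are shown first, because their seed differs from the annotated one. For each microRNA the most read tag at the annotated start is followed by the most read shifted tag, 5' to 3', with the seed (bases 2 to 8 of that tag) in capitals and T in place of U.
miR-142-3p, annotated start: tGTAGTGTttcctactttatgg
miR-142-3p, +1: gTAGTGTTtcctactttatgg
miR-10a, annotated start: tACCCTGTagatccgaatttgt
miR-10a, +1: aCCCTGTAgatccgaatttgtg
miR-10b, annotated start: tACCCTGTagaaccgaatttgt
miR-10b, +1: aCCCTGTAgaaccgaatttgt
miR-203, annotated start: gTGAAATGtttaggaccactag
miR-203, +1: tGAAATGTttaggaccactag
miR-140*, annotated start: tACCACAGggtagaaccacgg
miR-140*, +1: aCCACAGGgtagaaccacgg
miR-183, annotated start: tATGGCACtggtagaattcact
miR-183, +1: aTGGCACTggtagaattcact
miR-743a, annotated start: gAAAGACAccaagctgagtaga
miR-743a, +1: aAAGACACcaagctgagtaga
miR-743b-3p, annotated start: gAAAGACAtcatgctgaataga
miR-743b-3p, +1: aAAGACATcatgctgaataga
miR-295, annotated start: aAAGTGCTactacttttgagtct
miR-295, +1: aAGTGCTActacttttgagtct

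The tags shifted farther are shown inside the whole mature sequence, with the tag itself in capitals and the bases before or after it in lower case. Each is among the 2 most read shifted tags of its name, counted over the 5 libraries.
let-7a, +3: tgaGGTAGTAGGTTGTATAGTT
let-7a, +7: tgaggtaGTAGGTTGTATAGTT
let-7i, +3: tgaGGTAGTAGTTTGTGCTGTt
let-7i, +7: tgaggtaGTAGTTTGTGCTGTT
miR-98, +3: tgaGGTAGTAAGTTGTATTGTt
miR-16, +5: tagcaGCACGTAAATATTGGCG
miR-15a, +5: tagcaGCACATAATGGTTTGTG
miR-15a, +7: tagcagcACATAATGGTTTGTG
miR-7a, +6: tggaagACTAGTGATTTTGTTGT
miR-7a, +7: tggaagaCTAGTGATTTTGTTGT
miR-379, +4: tggtAGACTATGGAACGTAGG
miR-741, +2: tgAGAGATGCCATTCTATGTAGA

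Places are those of the RefSeq mature sequences on mouse GRCm38, read against GENCODE M21. miR-142-3p lies on the plus strand at chr11:87756903-87756925, in an intron of Mir142hg. miR-10a (chr11:96317186-96317208, plus strand) overlaps no other gene, while miR-10b (chr2:74726074-74726096, plus strand) lies in introns of Hoxd3 and Hoxd4. miR-203 is at chr12:112130927-112130948 on the plus strand and miR-183 at chr6:30169711-30169732 on the minus strand, neither within another gene. miR-140* lies in an intron of Wwp2 (chr8:107551288-107551308, plus strand). miR-743a (chrX:66776760-66776781) and miR-743b-3p (chrX:66777266-66777287) are close neighbours on the minus strand of the X chromosome, as is miR-741 (chrX:66796809-66796831). miR-295 (chr7:3220815-3220837, plus strand) overlaps an exon of Nlrp12 on the opposite strand. miR-98 lies in an intron of Huwe1 (chrX:151913229-151913250, plus strand), miR-379 at chr12:109709065-109709085 on the plus strand, and let-7i at chr10:122985698-122985719 on the minus strand, in an exon of D630033A02Rik. Both miR-16 and miR-7a come from 2 hairpins. Those of miR-16 lie in introns of Smc4 (chr3:69009918-69009939, plus strand) and Dleu2 (chr14:61631936-61631957, minus strand). One miR-7a hairpin lies in an intron of Hnrnpk (chr13:58392841-58392863, minus strand) and the other outside other genes (chr7:78888295-78888317, plus strand).

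Among the microRNAs with a +1 form, miR-142-3p of blood cells had the highest share of a name matched to RefSeq. Its +1 share was 49.1% and 61.9% in the Thy1+ libraries, 49.2% and 75.5% in the Thy1- libraries and 66.7% in the culture. The 2 fractions overlapped, and in 3 of the 5 libraries more than 60% of the reads of miR-142-3p carried the seed TAGTGTT in place of GTAGTGT. The +1 reads had 2 main 3' ends, and the tag shown above and the tag 1 base longer took 35.2% and 25.02% of its exact reads in the second Thy1+ library. miR-720, a name of 18 bases without a RefSeq match, stood higher still. At +1 it had 72.9% and 68.2% (Thy1+), 70.7% and 61.0% (Thy1-) and 55.6% (culture), on 2797 exact reads in all.

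The miR-10 pair gave the plainest contrast between near-identical sequences. These microRNAs, encoded in the Hox clusters, differ at 1 of 23 bases and share the annotated seed ACCCTGT and the shifted seed CCCTGTA. The +1 share of miR-10a was 36.0% and 28.6% in the Thy1+ libraries, 31.6% and 26.4% in the Thy1- libraries and 34.9% in the culture. That of miR-10b was 13.1%, 10.1%, 10.1%, 9.44% and 9.49% in the same order. The lowest miR-10a value lay above the highest miR-10b value, so the pair did not overlap in any library. In the Thy1- libraries miR-10b was the largest source of +1 reads (31.0% and 29.2% of them), and in the culture miR-10a was (21.7%).

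The next names of this kind were miR-203, miR-140* and miR-214*. The +1 share of miR-203, which restrains proliferation in skin, was 46.0% and 34.7% (Thy1+), 34.9% and 26.0% (Thy1-) and 41.9% (culture). For miR-140*, the 3p product of a hairpin best known from cartilage, the values were 39.5%, 36.4%, 37.3%, 33.4% and 29.6%. The third was miR-214*, with 22.3%, 25.5%, 31.1%, 49.7% and 22.2% on 1629 exact reads in all. The second Thy1- library was lowest for miR-203 and highest for miR-214*, so the libraries did not move all names one way.

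Germ cell microRNAs differed among themselves. In the miR-183 cluster, miR-183 had a +1 share of 19.6% and 20.3% (Thy1+), 17.4% and 15.3% (Thy1-) and 16.7% (culture). Its cluster partners did not share this, since the mean +1 share over the libraries was 0.521% at most for miR-182 and miR-96. On the X chromosome, miR-743a had 21.1%, 21.3%, 20.5%, 19.7% and 26.2%, and miR-743b-3p had 15.8%, 16.3%, 15.1%, 13.6% and 14.5%. These paralogs differ at 3 of 22 bases, one of them within the shifted seed (AAGACAC in miR-743a, AAGACAT in miR-743b-3p). The list of X-linked testis microRNAs held 15 names, of which 6 had a mean share of all shifts above 5%, with a median of 1.99%, against 41 of 216 and a median of 1.05% over all names.

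In the miR-290 cluster, which is expressed in pluripotent and germ cells, 2 of 7 names exceeded 5% for all shifts (median 1.02%), against 41 of 216 names overall (median 1.05%). The +1 share of miR-295 was 20.7% and 14.1% (Thy1+), 13.8% and 18.7% (Thy1-) and 16.4% (culture), with the fractions overlapping. For miR-292-3p it was 38.2% and 31.7% (Thy1+), 13.9% and 18.1% (Thy1-) and 37.0% (culture). Here the fractions did not overlap, and the culture stood with the Thy1+ libraries. With 2 against 2 libraries a lack of overlap is frequent without any difference, and the names showing it were not counted. The edgeR test of the fractions described below, over all shifts, gave an adjusted p of 0.975 for miR-292-3p. The other names of the cluster had means below 5% for all shifts. Among them miR-291a-3p had a mean of 2.87% at +1, and miR-293 had 0.223% for all shifts as its mean.

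A shift of 2 bases had a mean share above 5% in 4 names (miR-127*, miR-741, miR-1195 and miR-720). X-linked miR-741 had shares at +2 of 6.76% and 8.88% (Thy1+), 7.41% and 13.2% (Thy1-) and 8.59% (culture). It also had reads at +1 (mean 3.17%) and farther inside (mean 4.03% at +3 or more), so its start was spread more widely than that of miR-743a. The Dlk1-Dio3 product miR-127* reached 9.70%, 15.2%, 16.2%, 18.6% and 11.1% at +2, where the culture value rests on very few reads.

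The let-7 family, whose members promote differentiation, had few +1 reads and more reads at deep shifts. Of its 9 names 3 (let-7g, let-7i and miR-98) had a mean share above 5% for all shifts. Over the list the median share was 0.231% at +1 and 1.47% at +3 or more, against 0.388% and 0.320% over all 216 names. The members differed widely. let-7i had 13.1% and 13.4% (Thy1+), 9.35% and 22.6% (Thy1-) and 25.5% (culture) at +3 or more. miR-98, a family member on the X chromosome, had 22.5%, 23.0%, 13.4%, 29.7% and 24.1%. let-7a, which differs from miR-98 at 2 of 22 bases and from let-7i at 4, had only 2.94%, 2.95%, 2.53%, 4.74% and 4.27%. let-7c, 1 base from let-7a, was lower again, with a mean share of 0.885% for all shifts. Of the let-7a and let-7c reads, 96.4% and 97.4% lay on tags that match no other name, and tags shared between names were left out.

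Within the family the +3 and +7 tags varied across libraries in different ways. Summed over the 9 names, the +3 share was 0.855% and 0.892% (Thy1+), 0.636% and 1.53% (Thy1-) and 0.961% (culture). The +7 share was 0.306%, 0.222%, 0.469%, 0.255% and 1.41%. So the second Thy1- library was highest at +3, and the culture was highest at +7. For let-7i alone the +7 share was 2.71%, 2.19%, 2.56% and 2.57% in the fresh libraries and 16.1% in the culture. All of those let-7i reads are the 15-base tag shown above, the only tag that can start at +7 in its 22 bases. The culture held 3466 reads of it. miR-98 (1.33%, 2.26%, 1.29%, 1.57% and 8.68%) and let-7g (1.79%, 0.919%, 2.06%, 1.24% and 4.62%) had the same order of culture over fresh libraries.

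High +7 shares in the culture library were also found outside let-7. Of the 20 names with at least 100 reads at +7, the culture was the highest library in 13, among them all 8 let-7 names that reached this number, miR-15a and miR-16. It was also the library most often highest at +6 (8 of 19 names). At shorter shifts the second Thy1- library was most often highest, with 12 of 25 names at +5 (culture 7), 12 of 28 at +4 (culture 9), 14 of 25 at +3 (culture 4), 13 of 22 at +2 (culture 1) and 24 of 79 at +1 (culture 11). The 100 reads were summed over the 5 libraries, so names could pass through the deepest libraries, the culture and the second Thy1-. At +7 miR-16, miR-34c and miR-182 reached 100 only with their culture reads, and the culture was their highest library. These counts were made after the values were seen and have no test, and with a single culture library its preparation and the culture itself cannot be told apart.

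The miR-15 and miR-16 pair, which share the seed AGCAGCA and restrain the cell cycle, both carried deep shifts. At +5 miR-16 had 34.4% and 26.1% (Thy1+), 21.99% and 34.9% (Thy1-) and 21.5% (culture), nearly all on the 17-base tag shown above (33.8%, 25.7%, 21.6%, 33.7% and 21.0%). miR-15a, which differs from miR-16 at 6 of 22 bases, had 15.2%, 6.69%, 7.45%, 13.2% and 6.40% at +5. In both names the first Thy1+ and the second Thy1- libraries were the highest. At +7 miR-15a had 3.48%, 3.95%, 6.69%, 3.17% and 15.7%, so that in the culture its +7 reads exceeded its +5 reads (59 against 21 for the tags shown above). miR-15b, of the same family, was far lower, with a mean share of 1.94% for all shifts.

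miR-7a had the largest spread of all the names described. Its shifted share was 32.3% and 52.0% (Thy1+), 18.2% and 62.6% (Thy1-) and 43.1% (culture), and the Thy1- libraries were its lowest and its highest. The reads were spread over +4 (mean 8.88%), +5 (4.66%), +6 (15.7%) and +7 (12.0%), unlike the single site of miR-16. Only 4 of the 216 names (miR-7a, miR-214*, miR-142-3p and miR-292-3p) had a range above 20 percentage points over the libraries, and the median range was 1.33 points.

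miR-379, from the imprinted Dlk1-Dio3 region, and miR-449a, of the miR-34 family, gave smaller deep shifts. At +4 miR-379 had 2.70% and 2.14% (Thy1+), 4.31% and 3.36% (Thy1-) and 11.4% (culture). All 4 fresh values lay below the culture value. miR-449a had 4.55%, 5.69%, 2.42%, 12.5% and 6.52% at +5 on 1714 exact reads in all. Its second Thy1- value, the highest, rests on 6 shifted reads, and its second Thy1+ value on 7. miR-143, a mesenchymal microRNA, had 6.39%, 6.28%, 7.15%, 13.5% and 3.73% at +3 or more.

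Several of the most abundant names had almost no shifted reads. miR-34c, a testis microRNA with 1217585 exact reads, had shares of 0.175%, 0.172%, 0.292%, 0.180% and 0.411% for all shifts. miR-21, with 721041 exact reads, stayed between 0.586% and 0.818%. miR-872, another abundant name, had 0.0983% to 0.146%. The 12 names of the miR-17 clusters had a median of 0.526% and none above 5%. The Dlk1-Dio3 list had 3 of 17 names above 5% (miR-127*, miR-379 and miR-382), with a median of 0.777%. In the miR-34 family 1 of 4 names (miR-449a) exceeded 5% (median 2.41%), and in the miR-183 cluster 1 of 3, miR-183 itself (median 1.45%). The list of microRNAs known from other work for moved 5' ends had 8 of 25 names above 5%, with a median of 2.39%. Over all names 41 of 216 exceeded 5%.

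Most annotated starts were also the RefSeq starts. Of the 216 names 189 matched a RefSeq mature sequence (GRCm38.p6), and 187 of those have the same first base. RefSeq starts miR-101b 1 base upstream of the start in the files, and miR-297a overlapped only an entry of another name, miR-466j. In 186 of the 189 matched names the most read start was the RefSeq start. Only miR-142-3p and miR-720, which had no RefSeq match, had a most read start other than the annotated one over the libraries together.

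Arms and first bases were counted for each kind of shift. Among names with an assigned arm, a +1 share above 5% was found for 12 of 78 names on the 3p arm (15.4%) and 7 of 109 on the 5p arm (6.42%). A share above 5% at +3 or more was found for 7 of 109 names on the 5p arm and 0 of 78 on the 3p arm. All 9 names of the deep kind start with T, as do 107 of the 216 names, and 6 of the 9 leading tags then start with G. These 9 are not independent cases. let-7g, let-7i and miR-98 share their first base and annotated seed, and so do miR-15a and miR-16. Of the 21 names of the +1 kind 7 start with T, 6 with G, 5 with A and 3 with C, while only 14 of the 216 names start with G. After the shift 10 of these 21 start with A, and the second base is A in 90 of all 216 names. Counted in reads, 71.5% of the tags at the annotated start began with T, 58.7% of the +1 tags began with A, and 72.6% of the tags shifted by 3 or more began with G. These pooled values are weighted to the deepest libraries. By library, A began 49.8% and 37.5% (Thy1+), 59.8% and 61.6% (Thy1-) and 71.3% (culture) of the +1 reads, and in the second Thy1+ library G was more frequent than A (49.8%). At +3 or more G was the first base of 58.1%, 50.04%, 67.9%, 77.2% and 73.9%.

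The seeds of the leading shifted tags were searched among the annotated seeds of all names. In 23 names the leading shifted start held at least 5% of the exact reads in every library, and 0 of these 23 carried the annotated seed of another name in the files. Of the 140 names whose leading shift is +1, at any level, 8 did. The highest of them was X-linked miR-878-3p, whose +1 seed ATGACAC is that of miR-425 and miR-489. Its +1 share was 3.41% and 7.11% (Thy1+), 6.83% and 3.47% (Thy1-) and 6.44% (culture), a mean of 5.45%, with the fractions overlapping. The other 7 had means under 1%. One is let-7c, whose +1 seed AGGTAGT is that of miR-196a and miR-196b, at a mean of 0.363% of its exact reads. Another is miR-106b, whose +1 seed AAGTGCT is that of miR-291a-3p, miR-294 and miR-295, at a mean of 0.138%.

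The share over a whole library depended on which microRNAs were abundant. Summed over the 216 names, 4.34% and 5.54% of the exact reads were shifted in the Thy1+ libraries, 2.68% and 3.46% in the Thy1- libraries and 2.91% in the culture, with exact binomial 95% intervals no wider than 5.49% to 5.60%. The means were 4.94% ± 0.852 in Thy1+ and 3.07% ± 0.556 in Thy1- (SD, n = 2), and the groups did not overlap. The exact two-sided permutation test gave p = 0.333, the smallest that 2 against 2 libraries allow. At +1 the Thy1+ libraries had 3.09% and 3.91%, the Thy1- libraries 1.24% and 1.40% and the culture 1.15%. At +3 or more the order was reversed, with 1.03% and 1.26% against 1.33% and 1.93%, and 1.58% in the culture.

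The difference did not hold with the mix of names held fixed. With every name held at its mean level over the 5 libraries, the +1 share was 2.18% and 2.17% in Thy1+, 2.02% and 2.24% in Thy1- and 2.22% in the culture. Over all shifts it was 3.56% and 3.74%, 3.35% and 4.49%, and 4.11%, and the median over names was 0.970% and 1.06%, 0.958% and 1.16%, and 1.08%. On either scale the Thy1+ values lay between those of Thy1-. Blood cell miR-142-3p alone gave 24.9% and 44.6% of the +1 reads in the Thy1+ libraries, against 8.09%, 7.33% and 5.03% in the others. The 10 leading names gave 81.6% and 82.7%, against 65.6%, 66.7% and 71.6%. The white blood cell microRNAs given above were likewise highest in both Thy1+ libraries. Within Thy1- they were higher in the first library, where the pooled share was lower. miR-142-3p is itself one of them, and their part in the difference was not tested.

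The ranks of names were compared between libraries. Spearman's rho of the shifted share between 2 libraries, across 216 names, ranged from 0.689, between the Thy1+ libraries, to 0.851, between the Thy1- libraries. It ranged from 0.630 to 0.810 at +1 and from 0.519 to 0.724 at +3 or more. This is a description across names, which are not independent and whose low shares rest on few reads.

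To compare the cell fractions, shifted and annotated-start reads of each name were tested within libraries with edgeR's quasi-likelihood test, which gives a log2 odds ratio, so that the level of the microRNA cancels. Between Thy1+ and Thy1-, 160 of the 216 names had the 20 shifted and 20 annotated-start reads the test required. None of the 160 passed the threshold of 0.05 after Benjamini-Hochberg adjustment (0% called), with 3 names (miR-292-3p, miR-376b* and miR-107) at an unadjusted p under 0.05. DESeq2 and limma also called 0, with 1 and 5 names at an unadjusted p under 0.05. The median log2 odds ratio was -0.05, and 72 names were above 0 and 88 below. miR-292-3p had the lowest p, with a log2 odds ratio of 1.52 (SE 0.56, edgeR adjusted p = 0.975, range over alternatives 0.0773 to 0.991). The main members were not distinguished. The log2 odds ratio was -0.51 (SE 0.54) for miR-142-3p, 0.24 (SE 0.42) for miR-10a, 0.27 (SE 0.41) for miR-10b, 0.31 (SE 0.40) for miR-183, 0.63 (SE 0.45) for miR-203 and 0.12 (SE 0.46) for miR-16. Replicate spread was wide, with a biological coefficient of variation of 26.5%, and an absence of calls does not show that the shares were equal. The count rests on the Thy1- libraries. Without the first one 6 names were lower in Thy1+ (let-7a, let-7b, let-7c, let-7f, miR-142-3p and miR-143), and without the second miR-34c was lower and miR-351 higher.

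Between the culture and Thy1+, 169 names were tested and edgeR called 0 (0% called), with 4 (miR-379, miR-32, miR-125b-5p and miR-34c) at an unadjusted p under 0.05. DESeq2 called 1 name, miR-379, and limma called 0, with 4 and 7 at an unadjusted p under 0.05. The single culture library was assumed to vary like the fresh ones. The median log2 odds ratio was 0.11. For miR-379 it was 2.17 (SE 0.53, edgeR adjusted p = 0.0516, range over alternatives 1.47e-06 to 1.0), with the culture above both Thy1+ libraries. For let-7i it was 1.15 (SE 0.60, adjusted p = 0.850). Without either Thy1- library, which supply part of the spread in this fit, 5 names were called higher in the culture, namely let-7a, let-7c, let-7f, miR-34c and miR-379. In those fits miR-32 was called lower, and without the second Thy1- library miR-143 was too. The miR-32 value rests on the second Thy1+ library (8.10% shifted, against 0.418% in the first and 0.443% in the culture), and without it the log2 odds ratio was 0.10.

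Between the culture and Thy1-, 169 names were tested and edgeR again called 0 (0% called), with 5 (miR-379, miR-125b-5p, miR-143, miR-292-3p and miR-301a) at an unadjusted p under 0.05. DESeq2 and limma called 0, with 3 and 8 at an unadjusted p under 0.05. The median log2 odds ratio was 0.03. The value for miR-379 was 1.49 (SE 0.52, edgeR adjusted p = 0.777, range over alternatives 0.019 to 0.99) and that for miR-143 was -1.45 (SE 0.55, adjusted p = 0.777, range 2.99e-07 to 0.99). Leaving out the first Thy1- library gave 2 names higher (miR-34c and miR-379) and 4 lower (miR-143, miR-182, miR-335-5p and miR-470). Leaving out the second gave 6 higher (let-7a, let-7c, let-7f, miR-34c, miR-379 and miR-880) and 2 lower (miR-143 and miR-192). Both culture comparisons use the same culture library.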

How the data were processed

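Small RNA reads were collected from 2 Thy1+, 2 Thy1- and 1 culture library. The deposited files give raw read counts per tag, made by the authors, with each placement on a mature microRNA of miRBase 12.0 per the file names, and without normalization. The submitters' processing notes name DESeq, and no version or role is given. The aligner, its genome build and the adapter removal: not given in the sources used here. Library totals count microRNA reads only, not the whole sequencing depth.

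Exact tags on a single name were kept, and reads with an undetermined base (1.09% to 2.88% of a library) were left out, as were tags shared between names. The shift is the tag's start minus the annotated start, and names needed 1000 exact reads. At that minimum, miR-293* (1037 reads, mean share 0.826%) was just inside and miR-125b-3p (991 reads, 3.53%) just outside. Intervals are exact Clopper-Pearson at 95% and cover counting error only, since reads without molecular identifiers are not independent molecules.

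Shifted and annotated-start counts of each name entered edgeR 4.0.16 (R 4.3.3) as 2 columns per library, with a term per library, and p-values were adjusted over all names tested. The fresh fractions were compared on 4 libraries and the culture on all 5. The test was tested on simulated data. Between Thy1+ and Thy1- it recovered 6.12% of 2-fold changes in the odds and 52.1% of 4-fold changes. For the culture against Thy1+ the values were 2.04% and 33.3%, and against Thy1- 10.2% and 34%. Alternatives were DESeq2 1.42.0, limma 3.58.1 on log odds (pseudocount 0.5), other minimums, split ties, 1 mismatch, tags of 18 bases or more, other sets of shifts, a replicate block and leaving out each fresh library. Fits by kind of shift and the fixed-level share were added after the data were seen.

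Members and lists were chosen with earlier results of these data known. Named microRNAs were the 5 most read, those with a mean share above 50%, the 10 with most shifted reads relative to exact reads of the library and the 3 most read of each list. The others were named after their values were seen. Lists held the mature products of the hairpins named in the text.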

Additional observations from a re-analysis of the deposited data

How the results depend on the processing

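The pooled shares depend on weighting. In the recomputations by kind of shift, reads at the other shifts were left out of the denominator too. The Thy1+ minus Thy1- difference of 1.87 percentage points became -0.46 for shifts of 3 or more, -0.047 for the median over names and -0.27 with names at a fixed level, and ranged from 1.27 to 2.47 without single replicates. Culture minus Thy1+ (-2.03) became 0.416, 0.0623 and 0.457 under the same 3 settings. Culture minus Thy1- (-0.16) became 0.015 for the median and 0.187 at a fixed level, and ranged from -0.55 to 0.232 without single Thy1- replicates.

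Leaving out single replicates, the names called ranged from 0 to 1 higher and 0 to 6 lower for Thy1+ against Thy1-, from 0 to 5 higher and 0 to 2 lower for culture against Thy1+, and from 0 to 6 higher and 0 to 4 lower for culture against Thy1-. Where this leaves a group with 1 library, that library is assumed to vary like the others. For culture against Thy1+, 1 name (miR-379) was called with a minimum of 100 reads, with tied tags split, with DESeq2 and with the replicate block. The block gave 0 calls in the other comparisons. The labels state no pairing, and deviations of same-numbered libraries correlated at 0.198 over 160 names, so the block is not read as a pairing.

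The miR-32 log2 odds ratio of culture against Thy1+ ranged from -4.24 to 0.10 without single replicates and turned positive without the second Thy1+ replicate. That of miR-379 for culture against Thy1- turned to -0.34 with shifts of 1 or 2 and -0.29 with the shift of 1 only, since its shifted reads lie at +4. The mean shares of named microRNAs kept within 1 SD in 353 recomputations and moved farther in 58. Those 58 came from counting other shifts, from leaving out tags under 18 bases or, in 1 case, from allowing a mismatch. The cause of the remaining changes was not tested. Depth limits rare names most, and the Thy1+ libraries are the shallowest.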

Other observations

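Below the minimum of 1000 reads, 20 names with at least 100 exact reads had more than 20% of them shifted, among them 10 star strands. Neither count is set against all names of this read range. They therefore do not show that high shares or star strands are more frequent here than elsewhere. For miR-183*, the partner strand of miR-183, 366 of 388 reads (94.3%, exact 95% interval 91.5% to 96.4%) were shifted. By library these were 180 of 185 and 84 of 90 (Thy1+), 13 of 15 and 12 of 17 (Thy1-) and 77 of 81 (culture). The values were 625 of 701 reads (89.2%) for miR-376a* of the Dlk1-Dio3 region, 94.1% for let-7g*, 80.5% for miR-504 and 63.5% for miR-10b*. Their leading shift was +1. RefSeq matched 17 of the 20 names, and 0 of those RefSeq sequences begins at the leading shifted tag. miR-7b, a paralog of miR-7a, had 32.7% of its reads shifted, led by +6 as in miR-7a. These names were picked after their values were seen and carry no test.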
